A study of Mus musculus with 4 samples.

Results

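Resting bone marrow mesenchymal stem cells (MSCs) of the mouse that lack Snail1 were compared with MSCs that carry it. The comparison used 2 of the 4 arrays in the series, untreated Snail1-KO and untreated Snail1-WT cells, with 1 array for each. The other pair, Snail1-KO and Snail1-WT cells given TGF-b1 for 2 h, is set beside it where it helps to read a value. The members described are the 22180 genes that could be named from probe sets with a single symbol, each represented by its brightest probe set, and this is the same gene set that the whole series holds. Of these, the 13308 with the highest mean over the 4 arrays, a mean of at least 4.51, were used for counts across all genes and are called kept genes below. The cells were labelled as mesenchymal stem cells derived from bone marrow in all groups. How the allele was made, whether a Cre was used, the strain, age and number of mice, the dose of TGF-b1 and whether each culture was a clone or a pool were not given in the sources used here. Genotype and cell population therefore cannot be told apart, and in bulk RNA fewer cells of a type cannot be told apart from less RNA per cell.

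Snail1 is a zinc finger transcription factor that binds E-boxes and recruits corepressors to the genes it silences. It is best known for repressing epithelial genes during epithelial to mesenchymal transition, and it is also made by activated fibroblasts and mesenchymal progenitors. Bone marrow MSCs are stromal cells that support blood formation and can mature into bone, cartilage, fat and tendon-like cells. They secrete collagens, proteoglycans, growth factors and chemokines, so the resting state of these cells is read here mainly from matrix, signalling, immune and metabolic genes.

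The labels were checked against marker genes. Of 12 stromal markers 11 were measured, with levels from 4.62 to 11.9 on the RMA log2 scale in Snail1-WT cells and from 4.24 to 12.1 in Snail1-KO cells, and 0 of the 11 were 1.5-fold apart, against 6.13% of all 22180 genes. Pdgfra, a platelet-derived growth factor receptor of stromal cells, measured 11.10 and 10.72 in Snail1-WT and Snail1-KO cells. The surface ecto-enzyme gene Nt5e lay near background at 4.62 and 4.24. Defining genes of other cell types were low on both arrays. Ptprc, the pan-leukocyte gene, measured 3.16 and 3.49, the macrophage gene Adgre1 3.41 and 3.77, the endothelial gene Cdh5 4.77 and 4.31, and the epithelial gene Epcam 3.87 and 3.79. The 20 haematopoietic and macrophage markers ranged from 3.16 to 6.18 on the Snail1-WT and from 3.26 to 6.59 on the Snail1-KO array. Their median difference was 0.13, and 0 members were 1.5-fold apart. Other lists held brighter members in Snail1-WT and Snail1-KO cells. Their highest values were 9.14 and 8.94 for epithelial, 6.60 and 6.46 for endothelial, 9.04 and 9.22 for Schwann and neural crest, and 10.96 and 10.66 for pericyte markers. The fat cell genes Adipoq and Plin1 reached 5.30 and 4.77. Xist, the RNA of the inactive X chromosome, was low at 3.22 and 3.29. The Y-linked genes Eif2s3y (7.08 and 6.84), Uty (6.30 and 6.002) and Kdm5d (6.37 and 5.77) were present on both arrays. Kdm5d was more than 1.5-fold lower in untreated Snail1-KO cells, at -0.60, and differed by 0.05 in the treated pair.

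The targeted gene, Snai1, stood at 6.69 on the untreated Snail1-WT array and at 5.09 on the untreated Snail1-KO array, a difference of -1.60. The direction was that of the labels. With a single array in each group there was no replicate and no test, so every difference below is a description of these 2 arrays, given as Snail1-KO minus Snail1-WT on the log2 scale, where 1 is 2-fold. As a yardstick, the disagreement between the untreated and treated genotype differences, divided by the square root of 2, had an SD of 0.24 in the lowest quintile of kept genes by level, 0.21, 0.16 and 0.13 in the next quintiles and 0.10 in the highest. It includes true effects of TGF-b1 and leaves out whatever both arrays of a genotype share.

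Most genes were close on both arrays. The untreated difference was within 1.5-fold for 92.9% of kept genes. In Snail1-KO cells 110 genes were at least 2-fold higher (0.827% of kept genes) and 99 at least 2-fold lower (0.744%), 209 genes or 1.57% together. At 1.5-fold the counts were 534 (4.01%) and 417 (3.13%). Over all 22180 genes, the base for the list counts below, 3.48% were at least 1.5-fold higher and 2.65% lower. At 2-fold these shares were 0.6% and 0.528%, and 50.7% of all genes lay above 0. Nearest the threshold, the actin-regulating gene Mical1 at 1.002 and the chemokine gene Cxcl10 at 1.02 lay just inside, and Pts at 0.998 and Tspan17 at 0.992 just outside. On the lower side C1galt1 at -1.001 and Noct at -1.01 lay inside, and Fhdc1 and Ereg, at -0.999, outside.

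**Figure D1:**
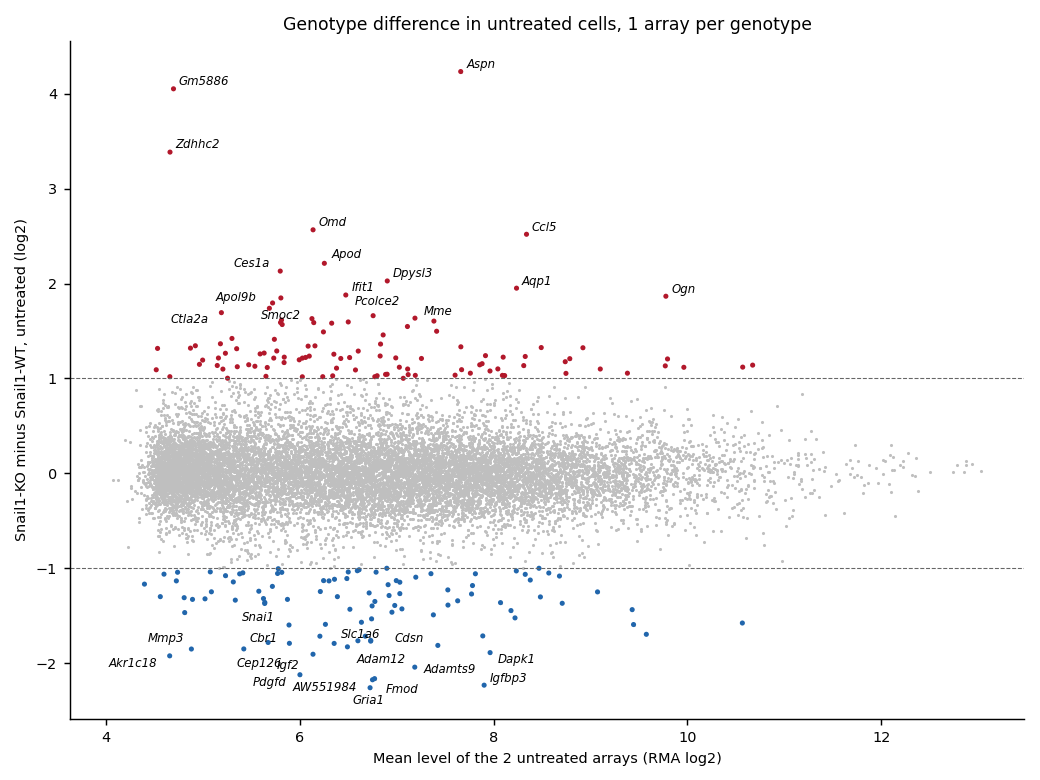
The plot of difference against level has the mean of the 2 untreated arrays (RMA log2) on the horizontal axis and Snail1-KO minus Snail1-WT (log2) on the vertical axis, with 1 point for each of 13308 kept genes. Red points are the 110 genes at least 2-fold higher, blue points the 99 at least 2-fold lower, dashed lines mark 2-fold, and Aspn stands highest at 4.23.

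The largest difference was that of Aspn, which encodes asporin, a small leucine-rich proteoglycan that binds collagen. Its level was 5.54 on the Snail1-WT array and 9.78 on the Snail1-KO array, an 18.8-fold difference. Another pair of proteoglycan genes of the same family, Omd (4.86 and 7.42) and Ogn (8.84 and 10.71), were also among the 15 largest increases. The secreted matrix genes Smoc2 (5.31 and 6.94) and Pcolce2 (5.93 and 7.59), the latter an enhancer of procollagen cleavage, joined them. Ccl5, a chemokine gene that attracts T cells and monocytes, measured 7.08 and 9.60. Among surface and transport genes, the water channel gene Aqp1 measured 7.26 and 9.21, and Mme, the gene of the cell surface peptidase neprilysin, measured 6.37 and 8.01. The lipid carrier gene Apod (5.15 and 7.36), the carboxylesterase gene Ces1a (4.73 and 6.87) and the cytoskeletal gene Dpysl3 (5.89 and 7.92) were each about 2 log2 units apart. Ces1a belongs to a cluster of near-identical esterase genes, so its signal may include others. Ifit1 and Apol9b, both interferon-inducible, are described further on. Zdhhc2, a palmitoyltransferase gene, measured 2.97 and 6.36, and Ctla2a, a protease inhibitor gene, measured 4.35 and 6.04. Their Snail1-WT values lie below 4.51, so the sizes of these differences are uncertain. The predicted gene Gm5886, named because it was singled out after its values were seen, measured 2.67 and 6.72.

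The 15 largest decreases were led by Gria1, a subunit gene of AMPA-type glutamate receptors, at 7.86 on the Snail1-WT and 5.60 on the Snail1-KO array. Growth factor genes followed. Igfbp3, a carrier and modulator of insulin-like growth factors, measured 9.02 and 6.79, Igf2 7.09 and 5.18, and Pdgfd, a ligand of the PDGF receptor beta, 7.06 and 4.94. The decreases also held genes that remodel matrix. Fmod, which encodes the collagen-binding proteoglycan fibromodulin, measured 7.86 and 5.69, the proteoglycan-cleaving protease gene Adamts9 8.21 and 6.17, and the membrane-anchored protease gene Adam12 7.41 and 5.58. Dapk1, a kinase gene linked to cell death and autophagy, measured 8.91 and 7.02. Cdsn, an adhesion gene of cornified epithelium, measured 8.33 and 6.52, and the glutamate transporter gene Slc1a6 measured 7.25 and 5.46. The carbonyl reductase gene Cbr1 measured 6.79 and 4.998, and AW551984 7.84 and 5.66. Mmp3 (5.81 and 3.96), Cep126 (6.35 and 4.50) and Akr1c18 (5.62 and 3.70) ended below 4.51 in Snail1-KO cells, so their sizes are uncertain.

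Because Snail1 binds the E-box CAGGTG, RefSeq promoter windows (assembly GRCm38.p6, the 250 bases before the start) were searched for it on both strands. Windows were given for 10384 of the 13308 kept genes, and 18.6% of these genes held the motif. It was in 16.7% of the 84 genes with a window among those at least 2-fold higher and in 27.6% of the 76 among those at least 2-fold lower. A match is a description of these letters, not a bound site. Stretches around the motif follow for Igfbp3 (chr11:7214060-7214125, minus strand), Dapk1 (chr13:60602143-60602208, plus strand) and Aqp1 (chr6:55336088-55336153, plus strand), chosen from the largest differences in each direction. Each is written 5′ to 3′ along the gene, with the motif or its reverse complement in capitals.
Igfbp3: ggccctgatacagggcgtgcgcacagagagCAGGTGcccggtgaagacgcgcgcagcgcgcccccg
Dapk1: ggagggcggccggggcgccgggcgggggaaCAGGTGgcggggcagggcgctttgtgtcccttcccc
Aqp1: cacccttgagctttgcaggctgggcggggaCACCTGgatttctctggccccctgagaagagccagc
The motif starts 172 bases before the start site in Igfbp3, 38 in Dapk1 and 181 in Aqp1. Igfbp3 and Dapk1 were lower in Snail1-KO cells and Aqp1 was higher, so the same letters stood before genes that differed in either direction. Aspn, the gene with the largest difference, held 0 matches in its window.

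Small leucine-rich proteoglycans, which bind collagen fibrils and growth factors, were split in both directions. Among the 15 with a value, 4 were at least 2-fold higher and 2 at least 2-fold lower, against 0.6% and 0.528% of all 22180 genes. Besides Aspn, Omd and Ogn the higher member was Ecm2, at 3.86 and 5.02, which did not pass the filter on low values. Decorin (Dcn), a widespread proteoglycan that coats collagen fibrils, measured 10.24 on the Snail1-WT and 8.65 on the Snail1-KO array, and Fmod was the other lower member. Biglycan (Bgn), the close relative of decorin, was high and alike at 12.85 and 12.86. The median of the list was 0.31, beside 0.005 over all genes.

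Collagens as a list had a small median difference. Of 30 measured collagen genes 20 lay above 0, the median was 0.12, and 4 were at least 1.5-fold higher and 1 lower, against 3.48% and 2.65% of all genes. Col3a1, the fibrillar collagen of soft tissue, measured 10.57 and 11.28, and the minor fibrillar gene Col11a1 6.82 and 7.80. Col18a1, a basement membrane collagen, measured 5.92 and 6.71, and Col24a1 went the other way at 5.69 and 4.92. Col1a2, a chain of the main bone collagen, differed by 0.21. Col28a1, which the list does not hold and which is named after its values were seen, differed by -1.323 untreated and -1.335 treated.

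Matrix glycoproteins went both ways. Among 35 listed genes 2 were at least 1.5-fold higher and 5 lower, against 3.48% and 2.65% of all genes, with a median of -0.03. The list holds only part of the matrix glycoproteins. Outside it, and named after their values were seen, Spon2 (1.458), Dpt (1.208), Ecm1 (1.140) and Srpx2 (1.117) were at least 2-fold higher. Npnt (-1.361) and Nid2 (-1.042) were at least 2-fold lower. Periostin (Postn), a matricellular gene of periosteum and ligament, measured 10.01 and 11.13. Tenascin C (Tnc), an anti-adhesive glycoprotein of remodelling tissue, measured 10.42 and 8.73, and the microfibril gene Fbn2 6.004 and 4.67. Fibronectin (Fn1) was alike at 12.36 and 12.33. Thrombospondin 1 (Thbs1), which activates latent TGF-b, measured 11.16 and 10.41, and the hyaluronan synthase gene Has2 7.97 and 7.08.

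Matrix enzymes and their inhibitors outside the chromosome 9 cluster had a median of -0.01, with 0 of 32 members at least 1.5-fold higher and 5 lower, against 3.48% and 2.65% of all genes. Adamts9 and Adam12 were the members past 2-fold. The list holds only part of these genes and their relatives. Outside it, and named after their values were seen, Adam5 (1.365 untreated and 1.187 treated) and Adamtsl4 (1.143 and 1.317) were at least 2-fold higher. The protease inhibitor gene Timp1 measured 9.36 and 8.60. Serpins, a family of mostly protease inhibitors, went both ways. The plasminogen and serpin list had 3 of 17 members at least 1.5-fold lower, among them Serpinb6b at 5.78 and 4.70, and 0 higher, but it holds only part of the family. Outside it, and named after their values were seen, Serpinb8 (5.01 and 6.60), Serpinb1a (6.34 and 7.88) and Serpinb9b (5.48 and 6.72) were at least 2-fold higher. Among 18 measured collagen processing enzymes Pcolce2 was the member past 1.5-fold. The crosslinking and processing genes as a list had a median of -0.03.

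Lineage genes showed no common direction. Of 19 osteoblast genes 2 were at least 1.5-fold higher and 3 lower, against 3.48% and 2.65% of all genes, with a median of 0.05. Alpl, the alkaline phosphatase of mineralising cells, measured 6.57 and 4.78, while Ank, a transporter that exports the mineralisation inhibitor pyrophosphate, measured 9.21 and 10.34. Tnfrsf11b, which encodes the osteoclast inhibitor osteoprotegerin, measured 5.76 and 4.82. Adipocyte genes had a median of -0.19, with 15 of 23 below 0. Lpl, the lipoprotein lipase gene, measured 7.11 and 6.15 and the triglyceride synthesis gene Dgat2 6.18 and 5.38, whereas the lipid droplet gene Plin2 measured 6.81 and 7.65. Pparg, the master regulator of fat cells, was alike at 5.59 and 5.60. Tendon genes included 4 of 14 at least 2-fold lower and 1 at least 1.5-fold higher, against 0.528% and 3.48% of all genes. The tendon transcription factor gene Scx was the higher member, at 6.70 and 7.44, and Fmod, Dcn, Tnc and Egr1 were the lower ones. Of 21 chondrocyte genes 2 were at least 1.5-fold higher and 0 lower, and Sox9, the chondrocyte regulator, measured 10.01 and 9.65.

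Smooth muscle and contractile genes had a median of 0.03. Of 25 members 0 were at least 1.5-fold higher and 3 lower, against 3.48% and 2.65% of all genes. The lower members were the actin-binding gene Cnn1 (7.72 and 6.82), the enteric actin gene Actg2 (5.92 and 5.16) and Tagln (8.77 and 8.08). Acta2, the smooth muscle actin gene of myofibroblasts, was alike at 11.74 and 11.70.

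Among 54 transcription factors of mesenchyme 0 were at least 1.5-fold higher and 5 were lower, Snai1 among them. The shares of all genes were 3.48% and 2.65%. Foxf1, a forkhead factor of visceral and lung mesenchyme, measured 7.62 and 5.85, the limb and palate regulator Osr2 8.86 and 7.79, and its paralogue Osr1 10.95 and 10.26. The related genes Snai2 and Zeb1, which share E-box binding with Snail1, differed by 0.39 and 0.45, both short of 1.5-fold. Twist1 measured 7.77 and 7.54.

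The insulin-like growth factor axis, which drives growth and survival, held 4 of 21 measured members at least 2-fold lower and 0 at least 2-fold higher, against 0.528% and 0.6% of all genes. At 1.5-fold 5 were lower and 3 higher, and the median was -0.22 untreated and 0.05 treated. Igfbp3 and Igf2 were named above, Grb10, an adaptor that dampens insulin receptor signalling, measured 7.02 and 5.98, and Stc1, counted in this list for its link to IGF-binding protein cleavage, measured 7.42 and 5.85. Igf1 measured 6.69 and 5.80. Igfbp6, a binding protein that prefers IGF2, was higher at 9.32 and 10.22. The receptor gene Igf1r differed by -0.22.

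Of 16 EGF receptor ligands, receptors and regulators 4 were at least 1.5-fold lower and 0 higher, against 2.65% and 3.48% of all genes, with a median of -0.22. The ligand genes Ereg (8.80 and 7.80), Hbegf (7.76 and 6.93) and Nrg1 (9.84 and 9.12) and the receptor inhibitor gene Errfi1 (8.75 and 7.72) made up the 4. In the FGF and PDGF list 21 of 31 members lay below 0, with a median of -0.19, and 3 were at least 1.5-fold lower and 0 higher. Besides Pdgfd these were the feedback inhibitor genes Spry2 (6.68 and 5.98) and Spry1 (6.95 and 6.34).

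Immediate early genes, which respond within minutes to growth factors and stress, had a median of -0.26. Of 31 members 7 were at least 1.5-fold lower and 2 higher, against 2.65% and 3.48% of all genes. Egr1, a zinc finger factor of this class, differed by -1.71, and Egr2 measured 6.31 and 5.53. Dusp4, a phosphatase that switches off ERK kinases and is induced by them, measured 7.24 and 5.80. The stress factor Atf3 (6.08 and 6.75) and the nuclear receptor gene Nr4a2 (6.60 and 7.30) were the higher members.

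In the TGF-b and activin list 26 of 32 members lay below 0 in untreated Snail1-KO cells, with a median of -0.23. Over all genes 50.7% lay above 0. Yet 3 members were at least 1.5-fold lower and 0 higher, against 2.65% and 3.48% of all genes. Inhbb, a subunit gene of activin, measured 6.47 and 5.69, and Fst, whose product traps activin, 8.16 and 7.42. The inhibitory genes Smad7 and Pmepa1 differed by -0.52 and -0.51. In the treated pair the median of the list was -0.10. The BMP and ID list lay at a median of -0.08, with 4 of 30 at least 1.5-fold lower and 1 higher, beside the same shares. The ligand gene Bmp4 measured 7.65 and 6.84, the BMP modulator gene Bmper 6.87 and 6.19, and the antagonist gene Grem1 was the higher member at 8.85 and 9.91.

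Targets of YAP and TEAD, the coactivator and DNA-binding proteins of the Hippo pathway, had the lowest median of the 54 lists described, at -0.38, with 20 of 24 below 0. Against 2.65% and 3.48% of all genes, 4 members were at least 1.5-fold lower and 1 higher. Igfbp3 is one of them, Ccn2, a matricellular gene, measured 7.88 and 6.83, and its relative Ccn1 11.44 and 10.51. A dimmer probe set of Ccn2 moved its mean difference over probe sets to -0.14. Yap1 itself measured 9.13 and 7.83. In the treated pair the median of the list was -0.10. The part that Yap1 has in these values was not tested.

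WNT genes went both ways, with a median of -0.01. Of 53 members 3 were at least 1.5-fold higher and 6 lower, against 3.48% and 2.65% of all genes. Sfrp1, a secreted WNT antagonist, measured 11.36 and 9.78, and the WNT receptor gene Ror1 5.93 and 5.05. Ccn4, a WNT-induced matricellular gene that the list does not hold, measured 9.10 and 8.04. The secreted modulator gene Dkk2 measured 7.42 and 8.50, and the receptor gene Fzd6 5.31 and 6.18. Notch genes had a median of -0.13 with Dlk1, a non-canonical ligand that restrains fat cell maturation, at 7.57 and 6.28. In the Hedgehog list the co-receptor genes Boc (5.95 and 5.05) and Cdon (8.05 and 8.73) differed in opposite directions. Among retinoid genes the binding protein gene Crabp1 measured 8.14 and 6.91, and Aldh1a2, which makes retinoic acid, measured 5.05 and 3.48 and did not pass the filter.

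**Figure D2:**
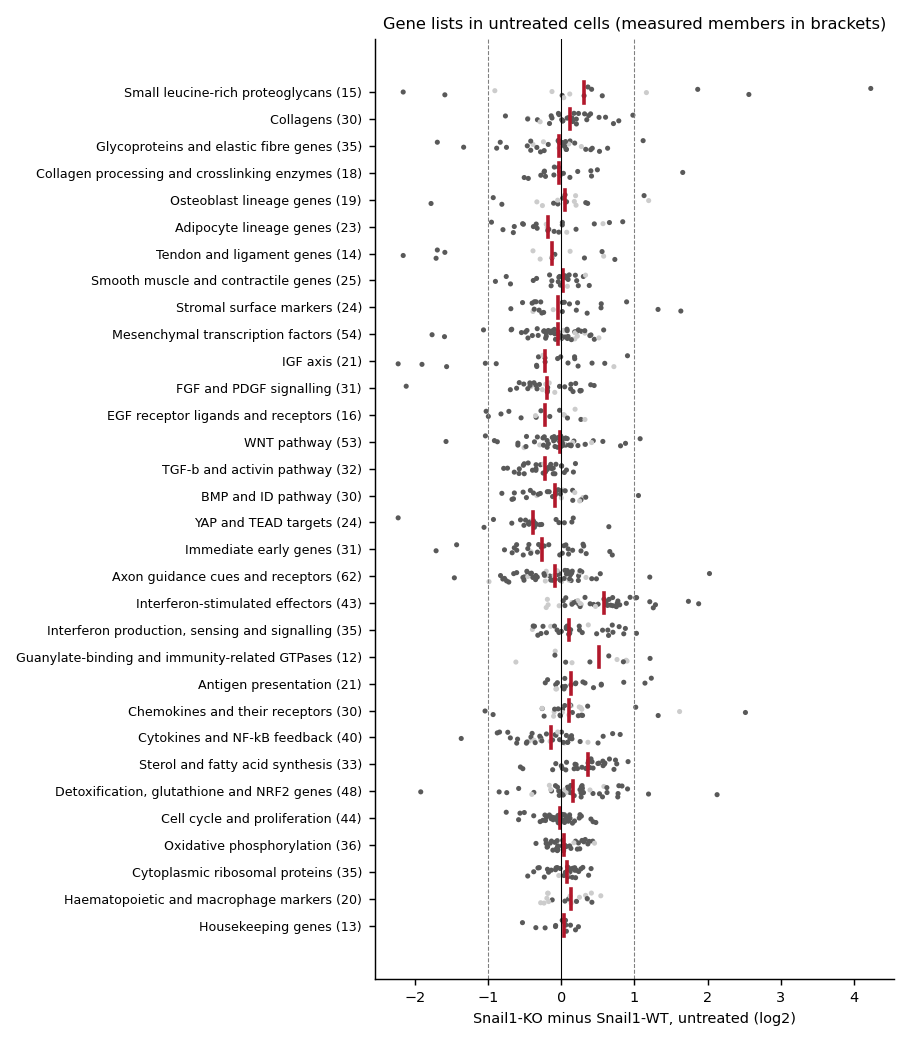
The plot of gene lists shows Snail1-KO minus Snail1-WT in untreated cells (log2) on the horizontal axis, for a selection of the lists described, with 1 row for each list and 1 point for each measured gene (dark where the gene passed the filter on low values, pale where it did not). Red bars are list medians, which reach 0.58 for interferon-stimulated effectors, 0.37 for sterol and fatty acid synthesis and -0.38 for YAP and TEAD targets.

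Interferon-stimulated effectors, the antiviral genes that type I interferons switch on, were the list with the highest median, at 0.58. Among the 43 with a value, 39 lay above 0, beside 50.7% of all genes. At least 1.5-fold higher were 21 (48.8%) and lower 0, against 3.48% and 2.65% of all genes. At least 2-fold higher were 7, against 0.6% of all genes. Ifit1, whose product binds viral RNA caps, measured 5.54 and 7.42. The oligoadenylate synthetase-like gene Oasl2 measured 5.96 and 7.25, the nucleotide kinase gene Cmpk2 4.96 and 6.22, and the pro-apoptotic gene Xaf1 6.65 and 7.86. Apol9a (7.60 and 8.63) and Apol9b (4.82 and 6.56) are near-identical copies, and how probes are shared between them is uncertain. Rsad2, the antiviral viperin gene, measured 4.15 and 5.17, so its size is uncertain. Other members stayed low on both arrays, such as Mx1 at 3.26 and 3.08, and Ifit3 differed by 0.20.

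The motif made of GAAA, any 2 bases and GAAA again, a short form of the element found before many interferon-induced genes, was searched on both strands of the same promoter windows. It stood in 2.96% of the 10384 kept genes with a window, in 11.9% of those at least 2-fold higher and in 1.32% of those at least 2-fold lower. Of the 32 interferon-stimulated effectors with a window 43.8% held it, 40% of the 15 that were at least 1.5-fold higher and 47.1% of the 17 that were not. Stretches that hold it are shown for Ifit1 (chr19:34640755-34640843, plus strand), Isg15 (chr4:156200845-156200926, minus strand), Rsad2 (chr12:26456533-26456602, minus strand) and Stat2 (chr10:128270248-128270315, plus strand), with every match in capitals. Overlapping matches run together, and TTTC at both ends of a run marks the reverse strand.
Ifit1: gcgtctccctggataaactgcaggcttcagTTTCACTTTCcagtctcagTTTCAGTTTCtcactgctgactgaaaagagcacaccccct
Isg15: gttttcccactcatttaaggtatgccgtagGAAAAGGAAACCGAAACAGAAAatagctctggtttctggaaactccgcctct
Rsad2: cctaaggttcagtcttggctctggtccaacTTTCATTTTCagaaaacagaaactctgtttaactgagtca
Stat2: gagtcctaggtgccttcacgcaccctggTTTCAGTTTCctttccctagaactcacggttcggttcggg
Ifit1 holds 2 matches, Isg15 holds 3, and Rsad2 and Stat2 hold 1 each. Isg15, the ubiquitin-like modifier gene, was higher by 0.77 and Stat2 by 0.88.

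Among 35 genes that sense viral RNA or carry the interferon signal 8 were at least 1.5-fold higher and 0 lower, with a median of 0.11. The shares of all genes were 3.48% and 2.65%. Irf9, the DNA-binding subunit of the interferon-activated complex, measured 6.29 and 7.31, and its partner Stat2 7.35 and 8.22. The RNA sensor genes Tlr3 (5.07 and 5.93), Ddx58, the RIG-I gene (6.79 and 7.58), and Dhx58 (5.21 and 5.91) were among the higher members. The interferon gene Ifnb1 was low on both arrays, at 3.35 and 3.21, and the receptor gene Ifnar1 was alike at 9.05 and 9.02. Of 12 guanylate-binding and immunity-related GTPases 6 were at least 1.5-fold higher and 1 lower, but 6 of the 12 did not pass the filter on low values, including the higher members Gbp3 (4.22 and 5.11), Gbp4 (2.66 and 3.56) and Igtp (4.32 and 5.08). Gbp7 measured 5.42 and 6.64, and Irgm2 4.89 and 5.74.

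Antigen presentation genes differed by less as a list, with a median of 0.13. Of 21 members 3 were at least 1.5-fold higher and 0 lower, against 3.48% and 2.65% of all genes. The higher members were the peptide loading gene Tapbp (7.71 and 8.94), the non-classical class I gene H2-T23 (4.90 and 6.05) and the proteasome activator gene Psme2 (5.81 and 6.67). The mean over the probe sets of Tapbp gave 0.86, under 2-fold. B2m, the shared light chain of class I molecules, differed by 0.19, and the class I gene H2-K1 by 0.44. Class I genes are close copies of each other, so their signals may be mixed.

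**Figure D3:**
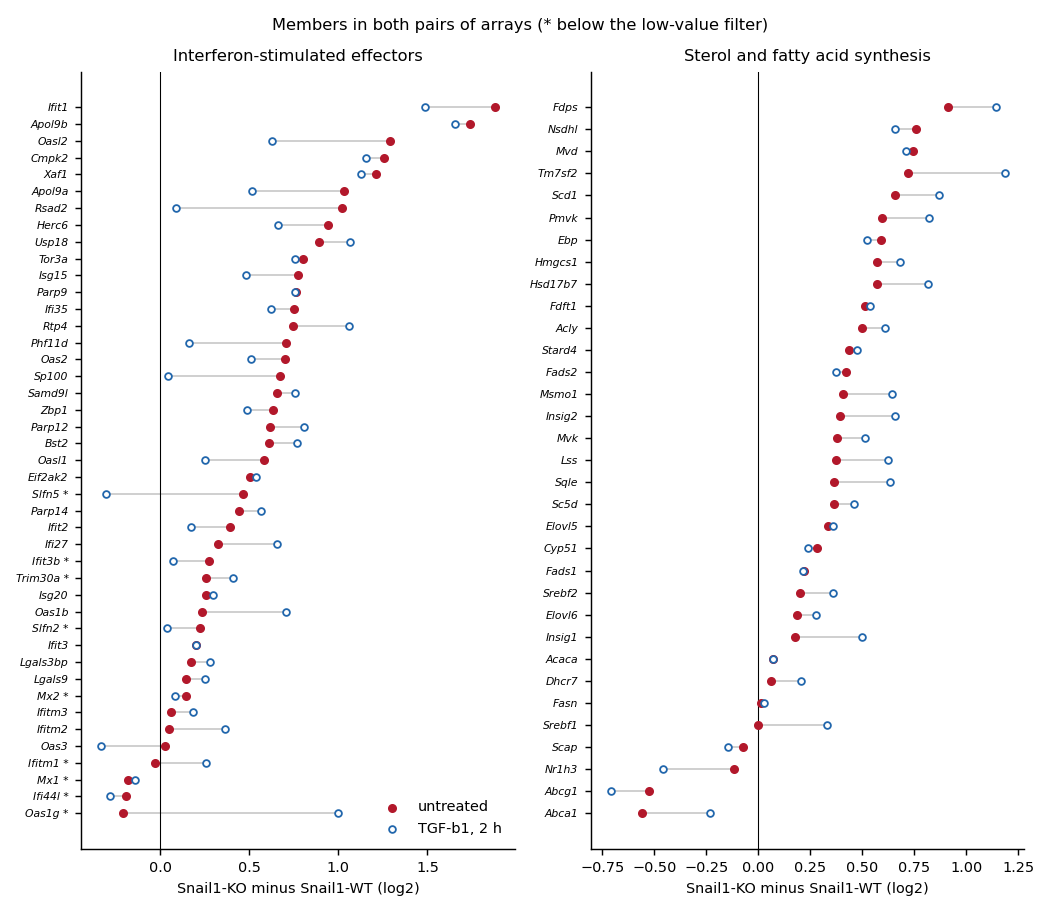
The plot of interferon-stimulated effectors (left, 43 genes) and sterol and fatty acid synthesis genes (right, 33 genes) shows Snail1-KO minus Snail1-WT (log2) on the horizontal axes, filled points for untreated and open points for TGF-b1-treated cells. Untreated points lie above 0 for 39 of 43 genes on the left and 28 of 33 on the right, and Rsad2 is the effector at 1.02 untreated and 0.09 treated.

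Chemokine genes had a median of 0.11, with 4 of 30 at least 1.5-fold higher and 2 lower, against 3.48% and 2.65% of all genes. Ccl5 and Ccl9 (7.83 and 9.15), which attract monocytes and T cells, and Cxcl10, an interferon-inducible chemokine gene (5.73 and 6.75), were higher, as was Ccl8 (3.38 and 5.002) below the filter. Ccl27a (6.34 and 5.29) and Cxcl14 (6.48 and 5.55) were lower, although the mean over the probe sets of Ccl27a was -0.55. Cxcl12, the niche chemokine that retains blood stem cells in marrow, differed by -0.26.

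Inflammatory cytokine and NF-kB feedback genes leaned the other way, with a median of -0.14. Of 40 members 2 were at least 1.5-fold higher and 7 lower, against 3.48% and 2.65% of all genes. The acute phase gene Saa3 measured 9.39 and 8.02, the pentraxin gene Ptx3 9.37 and 8.50, Il6 5.27 and 4.43, and the siderophore-binding gene Lcn2 9.26 and 8.56. Tnfsf13b, the B cell survival factor BAFF, was higher at 5.47 and 6.27. Complement and acute phase genes were mixed, with 3 of 30 at least 1.5-fold higher and 4 lower, and C4b, a core component of the classical pathway, measured 7.06 and 5.47.

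The sterol and fatty acid synthesis list, which holds targets of SREBP transcription factors along with cholesterol exporters, was higher by small amounts. The median of 33 members was 0.37, and 28 lay above 0. At least 1.5-fold higher were 7 and lower 0, against 3.48% and 2.65% of all genes, and 0 reached 2-fold. The acetyl-CoA synthetase gene Acss2, outside the list and named after its values were seen, differed by 1.236 untreated and 1.458 treated. Fdps, which makes farnesyl pyrophosphate, measured 8.48 and 9.40, the mevalonate pathway gene Mvd 7.64 and 8.38, the late sterol genes Nsdhl 9.04 and 9.80 and Tm7sf2 6.52 and 7.24, and the desaturase gene Scd1 10.33 and 10.99. The genes at the other end of the list export cholesterol: Abca1 measured 6.94 and 6.37, and Abcg1 5.57 and 5.05, both short of 1.5-fold. Fasn, the fatty acid synthase gene, was alike at 9.60 and 9.62. In the treated pair the median was 0.50, with 13 members at least 1.5-fold higher and 1 lower, against 4.06% and 2.9% of all genes.

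Detoxification and glutathione genes had a median of 0.16, with 35 of 48 above 0. At least 1.5-fold higher were 9 and lower 3, against 3.48% and 2.65% of all genes. Besides Ces1a, the aldehyde dehydrogenase gene Aldh3a1 (4.40 and 5.60) and the glutathione transferase genes Gstm7 (5.21 and 6.11) and Gstt3 (5.98 and 6.81) were higher. Akr1c18, Cbr1 and the oxysterol hydroxylase gene Cyp7b1 (7.85 and 6.999) are metabolic genes with lower values. ER stress and heat shock genes had a median of 0.11 with 24 of 30 above 0, and 2 were at least 1.5-fold higher, the small heat shock genes Cryab (8.33 and 9.13) and Hspb1 (5.46 and 6.06). Their means over probe sets gave 0.54 and 0.22, both short of 1.5-fold. Of 30 glycolysis and hypoxia genes, Ndrg1 (8.22 and 9.27) and the phosphofructokinase gene Pfkp (6.68 and 7.71) were at least 2-fold higher, and the median was -0.003. The mean over the probe sets of Ndrg1 gave 0.97, under 2-fold.

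Surface, adhesion and guidance genes differed one by one. Among 36 cadherins and catenins Cdh2, the neural cadherin that joins mesenchymal cells, measured 7.49 and 8.71 and Cdh18 5.12 and 6.41, while Cdh3 (9.06 and 8.17) and the giant cadherin gene Fat4 (7.87 and 6.94) were lower. Of 25 epithelial genes 2 were at least 1.5-fold higher and 1 lower, against 3.48% and 2.65% of all genes. The tight junction gene Cldn1 measured 5.83 and 6.85, and Cdsn was the lower member. Cldn7, the other higher member, measured 3.33 and 4.08 and did not pass the filter on low values. Of 25 integrins 3 were at least 1.5-fold higher and 2 lower, beside the same shares. They included Itgb3 (5.07 and 5.92), a subunit of the vitronectin receptor, Itga6 (6.20 and 6.84), a laminin receptor subunit, and the collagen receptor gene Itga1 (6.31 and 5.49). The tetraspanin gene Cd9 measured 8.26 and 9.58, with a mean over its probe sets of 0.86, and Ly6c1 5.62 and 6.51.

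Of 62 axon guidance genes, which also direct cell migration outside the nervous system, 2 were at least 1.5-fold higher and 9 lower. The shares of all genes were 3.48% and 2.65%. Below 0 lay 39 of the 62. The ephrin ligand genes Efnb1 (7.68 and 6.22) and Efnb2 (8.78 and 7.95) were lower. Dpysl3 and the netrin receptor gene Unc5c (5.82 and 7.03) were the higher members. Among channels and receptors the T-type calcium channel gene Cacna1g measured 7.07 and 5.35, the adrenomedullin and CGRP receptor gene Calcrl 5.005 and 6.62, the natriuretic peptide clearance receptor gene Npr3 7.35 and 6.09, and the vasopressin receptor gene Avpr1a 5.94 and 4.89. Angpt1, the niche ligand of the TIE2 receptor, measured 7.30 and 8.54, and the mean over its probe sets gave 0.79.

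Core cell functions were close on both arrays, as were most genes, since 6.13% of all 22180 were 1.5-fold apart. Of 44 cell cycle genes 2 were at least 1.5-fold lower, the cyclin gene Ccne1 (6.72 and 5.96) and the replication gene Mcm3 (9.58 and 8.99), and 0 were higher, with a median of -0.02. None of 36 oxidative phosphorylation genes (median 0.03), 35 ribosomal protein genes (0.08) or 13 housekeeping genes (0.04) was 1.5-fold apart. Gapdh measured 12.50 and 12.51. Of 30 CDK inhibitor and p53 target genes 1 was at least 1.5-fold higher, Plk2 at 10.06 and 10.66, and Cdkn1a differed by -0.16. Endothelial (16 genes) and skeletal muscle (14 genes) markers had 0 members 1.5-fold apart. In lists this short such counts are near the share of all genes.

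The genotype differences at rest were then set beside those of the treated pair, which shares no array with them but may share cultures. Of the 110 genes at least 2-fold higher untreated, 102 were at least 1.5-fold higher and 74 at least 2-fold higher with TGF-b1, and their median was 1.22 untreated and 1.18 treated. Over all kept genes 5.14% were at least 1.5-fold higher and 1.07% at least 2-fold higher in the treated pair. Of the 99 lower genes, 89 were at least 1.5-fold lower and 63 at least 2-fold lower with TGF-b1, against 3% and 0.631% of kept genes, and the median was -1.32 untreated and -1.13 treated. Anything else by which the Snail1-KO and Snail1-WT populations differ would enter both pairs alike.

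Some genes differed less between the genotypes in the treated pair. They were chosen for being at least 2-fold apart untreated, and that choice alone favours smaller treated differences. Akr1c18 differed by -1.92 untreated and -0.62 treated, and Ctla2a by 1.69 and 0.71. Egr1 differed by -1.71 untreated and -0.55 treated, and its treated minus untreated value was -0.14 for Snail1-WT and 1.03 for Snail1-KO cells. Ccn4 (-1.05 and -0.25), Klf5 (-1.43 and -0.64) and the thyroid hormone-inactivating gene Dio3 (-1.24 and -0.51) also differed less, while Dapk1 (-1.89 and -1.08) and Fmod (-2.16 and -1.30) stayed more than 2-fold apart. The brightest probe set of Ccn2 gave -1.06 and -0.08, but the mean over its probe sets was -0.14 untreated. On the higher side Rsad2 differed by 1.02 and 0.09, Trim30d, of an interferon-inducible family, by 1.22 and 0.15, Cldn1 by 1.03 and 0.27, the melanocortin receptor gene Mc5r by 1.49 and 0.68, and Sybu by 1.34 and 0.11. Opposite signs were seen for 2 genes, Trp63 (1.09 and -0.15) and Gal3st2b (-1.04 and 0.13). Ctla2a, Rsad2, Sybu and Trp63 lay below 4.51 in untreated Snail1-WT cells, and Akr1c18 and Gal3st2b did so in untreated Snail1-KO cells. Snai1 and Foxf1 were farther apart with TGF-b1, at -2.29 and -2.42.

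**Figure D4:**
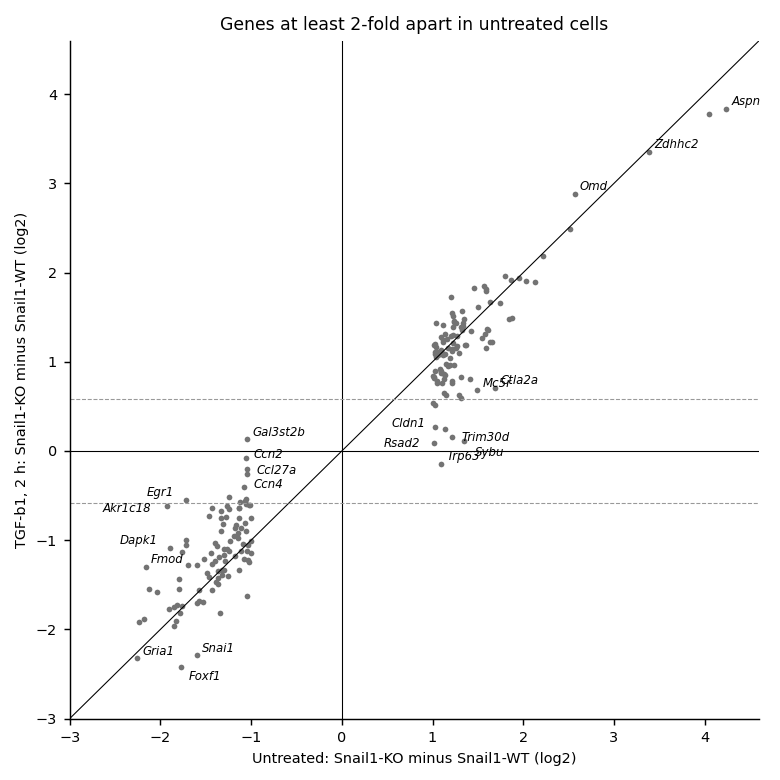
The plot of both pairs shows, for the 209 genes at least 2-fold apart in untreated cells, the untreated difference (log2) on the horizontal axis and the TGF-b1 difference (log2) on the vertical axis, with dashed lines at 1.5-fold and a diagonal of equal values. Most points lie near the diagonal, and Ccn2, Gal3st2b, Rsad2, Sybu and Trp63 lie near a treated difference of 0.

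Differences were finally placed in gene order along the chromosomes of GRCm38.p6. Chromosome 9 held 20 of the 99 genes at least 2-fold lower, 2.67% of its 748 kept genes. Of these, 10 lay among the 16 neighbouring kept genes from Casp1 to Arhgap42, whose median was -1.20 untreated and -1.16 treated. Pdgfd, Mmp3, Cep126 and Yap1 lie in this stretch, as do the inflammatory caspase gene Casp1 (-1.49), the ubiquitin pathway gene Dcun1d5 (-1.44), the apoptosis inhibitor gene Birc2 (-1.15) and Arhgap42 (-1.25), which are named for their position. Chromosome 9 outside the stretch held 10 lower genes among 732, and all chromosomes outside it 89 among 13199. A further run of 16 kept genes from Piwil4 to Zfp558 held 3 lower genes, with a median of -0.19. Elsewhere the median of 11 neighbours stayed between -0.46 and 0.53. By whole chromosome, medians ran from -0.11 on chromosome 5 and -0.10 on chromosome 7 to 0.07 on chromosome 6, and they were -0.13, -0.10 and 0.07 in the treated pair. Whether the chromosome 9 genes differ through Snail1 or through the cells' origin cannot be told apart here.

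**Figure D5:**
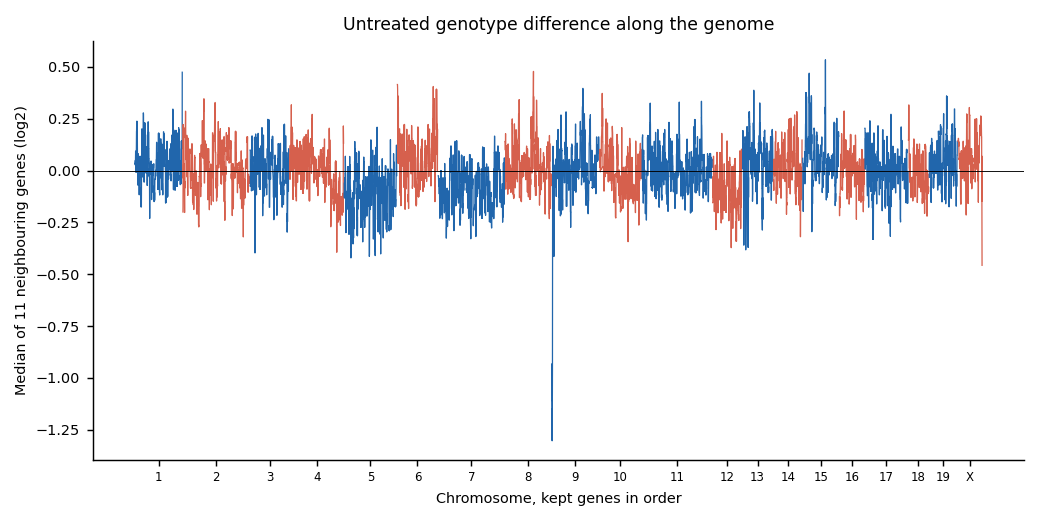
The plot along the genome shows the median untreated difference of 11 neighbouring kept genes (Snail1-KO minus Snail1-WT, log2) on the vertical axis and kept genes in order on chromosomes 1 to 19 and X on the horizontal axis, with colours alternating by chromosome. The lowest window, -1.30, lies at the start of chromosome 9.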

How the data were processed

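RNA of 4 samples (Snail1-WT and Snail1-KO MSCs, untreated or with TGF-b1) was labelled with biotin by the WT PLUS kit for Affymetrix arrays, per the labels' protocols. The authors deposited log2 values, which per the submitters' processing notes came from RMA, run under R 3.1.1. This method subtracts background, forces the arrays to 1 distribution and combines probes, which would hide a shift shared by most genes. Build and annotation were not given in the sources used here. With no sequencing involved, precision is limited by the number of arrays. Array medians lay between 4.58 and 4.63.

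Of 41345 probe sets, 23521 had 1 symbol in the platform annotation, 1814 several, and 16010 are not named here. By Entrez identifier 23328 matched a RefSeq table (GRCm38.p6). Each gene was represented by its brightest probe set over the 4 arrays, and the highest 60% of genes were kept. With 0 residual degrees of freedom no test was made. Differences were counted at 2-fold and 1.5-fold, and 54 lists (1433 of 1555 symbols measured) were described by counts and medians. The comparison, the lists and the members were chosen with earlier results of these data known. Named genes were Snai1, the 15 largest differences each way, up to 6 members per list at least 1.5-fold apart plus well known ones, and the 12 genes each way whose treated pair differed most. Predicted gene models, clone names and similar symbols were left out of naming. Threshold neighbours, genes named for position and some genes outside the lists were added after their values were seen. Counting was tested on simulated data. Alternatives were no filter or 40% of genes, median centring, cyclic loess (limma 3.58.1, R 4.3.3), other probe set rules, 1.5-fold and 21-gene windows. Python 3.11.15, numpy 2.4.6, pandas 2.3.3 and matplotlib 3.10.9 were used.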

Additional observations from a re-analysis of the deposited data

Results flagged for a closer look

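Among the genes named for the 54 lists, 4 met 2 conditions. Their genotype differences had opposite signs in the untreated and treated pairs, and the treated difference exceeded the noise SD at that level, 0.13 to 0.21. Other named genes also had opposite signs, with treated differences inside the SD, such as Nr4a2 (0.70 and -0.02) and Iigp1 (0.65 and -0.07). This SD is the yardstick computed from the disagreement between the same pairs, so exceeding it does not show a true sign change. The treated values of Cebpa and Itga11 were barely above their SDs of 0.214 and 0.128. Those of C1s1 and Id2 lay farther out, with SDs of 0.214 and 0.164. With 1 array in each group the difference between the pairs was not tested. The complement protease gene C1s1 was higher in untreated Snail1-KO cells by 0.78 and differed by -0.47 in treated cells, and the mean over its probe sets gave 0.38 untreated. Cebpa, a regulator of fat cell maturation, differed by -0.66 untreated and 0.22 treated. Id2, an inhibitor of basic helix-loop-helix factors, differed by -0.64 and 0.56. Itga11, a collagen receptor subunit gene, differed by -0.62 and 0.14.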

How the results depend on the processing

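No paired analysis was possible because the labels carry no replicate numbers and each group has 1 array. The 110 higher and 99 lower genes became 133 and 117 without the filter on low values, 74 and 71 among the 40% brightest genes, 111 and 97 with median centring, 112 and 97 with cyclic loess, 103 and 95 with the mean of probe sets, and 534 and 417 at 1.5-fold. The medians of the 54 lists kept their sign or moved by less than the noise in all 270 values computed. Of 836 values for 209 named genes 0 changed sign, and 6 fell short of 2-fold, all with the mean of probe sets (Angpt1, Ccl27a, Ccn2, Cd9, Ndrg1 and Tapbp). With the same setting 8 others, under 2-fold apart, moved by more than the noise SD, from C1s1 (0.38), Cacnb4 (0.39), Cryab (0.54), Hspb1 (0.22) and Rgs2 (0.59) to Ebf2 (-0.28), Fat4 (-0.68) and Lpl (-0.79). Cyclic loess moved the median of kept genes by 0.003. The lowest window on chromosome 9 was -0.96 over 21 genes in place of -1.30 over 11. Values below 4.51 are near background, and differences there have uncertain sizes.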

Other observations

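Probe sets that are not named here numbered 16010, and 6386 of them reached the level of the kept genes. In untreated cells 96 of these were at least 2-fold higher and 129 at least 2-fold lower without Snail1, 3.52% together, and 41 were at least 2-fold apart in the same direction in both pairs. Among 14014 probe sets of single genes at the same level 111 were at least 2-fold higher and 115 lower (1.61% together), and 149 were apart in both pairs. The unnamed probe sets were thus apart more often at rest and in both pairs less often, in counts that were not tested.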
